A study of Mus musculus with 12 samples.

Results

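The plasminogen activation system was described through 6 genes, Plau, Plat, Plaur, Anxa2, Serpine2 and Serpinb2, among 31053 genes of the deposited matrices. They were chosen by name and for their role, with earlier results of these data known. The series holds single cells from spontaneous breast tumors of PyMT mice, in which a mammary tumor virus promoter drives the polyoma middle T oncogene mainly in mammary epithelium. It has 3 wild-type (PyMT-PAR2WT) and 3 PyMT-PAR2G37I samples of CD11c-selected cells, and 3 and 3 samples of CD4/CD8-selected cells. PAR2G37I mice carry a knock-in mutation of F2rl1, the gene of protease-activated receptor 2, in every cell, and all mice were of a C57BL/6 background. CD11c is an integrin of macrophages and DCs, and per the methods these cells came from late-stage tumors, whereas CD4/CD8-selected cells came from mid-size tumors. Cells were selected with beads after enzymatic digestion, frozen and thawed before capture. Transcripts were counted as unique molecular identifiers (UMIs), 1 for each captured mRNA molecule.

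Each matrix pools its 6 samples and the barcodes name no sample. Each matrix was therefore treated as 1 sample, genotypes were not compared, no test was run and no p-value is given. In each matrix the barcodes pass through the alphabet 6 times, and these 6 stretches, called barcode runs, were linked to no sample. Values by run are given as the lowest, the median and the highest over runs with at least 10 cells of a type, to show how uneven a level was. After cells with fewer than 200 detected genes were left out, 11639 CD11c-selected cells with 123642015 UMIs and 22806 CD4/CD8-selected cells with 135965765 UMIs remained. Runs held 13314063 to 24231244 UMIs in the first matrix and 16203038 to 30168668 in the second. Within a matrix 76 and 51 barcodes occurred in more than 1 run, and 90 barcodes occurred in both matrices.

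Cells were assigned to types by raw UMIs of marker genes, with limits on the markers of other types, and none of the 6 genes was used as a marker. However, the pericyte gate and wider limits for some other gates, among them tumor cells and fibroblasts, were set after ungated Serpine2 cells had been seen. In the CD11c-selected matrix the gates held 5534 macrophages, 60 Ly6c2 monocytes, 149 neutrophils, 1270 DCs, 258 tumor cells and 84 fibroblasts, and 3807 of the 11639 cells met no gate. Those ungated cells had a median of 2522 UMIs, against 7943 over all kept cells. They held 24.9% of Anxa2 UMIs, 22.8% of Plaur UMIs and between 14.55% and 17.96% of the UMIs of each other gene. Smaller gates held 141 cells with both Ly6c2 and C1q (intermediate cells), 199 Retnla myeloid cells, 29 endothelial cells, 25 pericytes and 66 T cells. Of the 6 types, the CD4/CD8-selected matrix held 835 macrophages, 241 tumor cells and 60 fibroblasts, but 10 Ly6c2 monocytes, 14 DCs and 0 neutrophils. The labelled cell types were present, since macrophages and DCs made up 47.5% and 10.9% of CD11c-selected cells and T cells made up 84.3% of CD4/CD8-selected cells.

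Plasminogen, made mainly in the liver, is cut into the protease plasmin by 2 activators. Plau encodes urokinase (uPA), which works on cell surfaces bound to its receptor uPAR, the product of Plaur, and Plat encodes tissue plasminogen activator (tPA), best known for the lysis of fibrin. Anxa2 encodes annexin A2, which with its partner S100a10 binds plasminogen and tPA at the cell surface. Serpine2 (protease nexin-1) and Serpinb2 (plasminogen activator inhibitor type 2) encode inhibitors of the activators. In tumors, plasmin acts on fibrin, on matrix and on other proteases.

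The bases before the annotated start are printed for the 4 genes that had an entry in the RefSeq table (build GRCm38.p6), without any base that lies in a GENCODE exon, so that motifs named for such promoters can be set beside the levels. Capitals mark matches to the AP-1 motif TGANTCA, searched on both strands. Plaur lies at chr7:24462484-24475968 on the plus strand and the bases shown are chr7:24462233-24462482. Serpinb2 lies at chr1:107511423-107535478 on the plus strand, with chr1:107511173-107511422 shown. Anxa2 lies at chr9:69453620-69491795 on the plus strand, with chr9:69453433-69453619 shown. Serpine2 lies at chr1:79794197-79861180 on the minus strand, and the bases shown, chr1:79858697-79858915, are on that strand, within the gene as GENCODE draws it but outside its exons.
Plaur: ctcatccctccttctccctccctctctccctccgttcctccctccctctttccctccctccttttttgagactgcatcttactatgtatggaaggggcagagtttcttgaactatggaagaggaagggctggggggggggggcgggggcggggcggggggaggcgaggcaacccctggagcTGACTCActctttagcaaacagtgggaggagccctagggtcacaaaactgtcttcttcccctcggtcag
Serpinb2: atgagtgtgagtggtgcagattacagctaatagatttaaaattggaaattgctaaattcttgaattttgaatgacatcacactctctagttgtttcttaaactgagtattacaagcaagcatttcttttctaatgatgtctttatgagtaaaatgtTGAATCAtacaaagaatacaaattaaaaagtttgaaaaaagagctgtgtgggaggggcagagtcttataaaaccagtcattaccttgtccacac
Anxa2: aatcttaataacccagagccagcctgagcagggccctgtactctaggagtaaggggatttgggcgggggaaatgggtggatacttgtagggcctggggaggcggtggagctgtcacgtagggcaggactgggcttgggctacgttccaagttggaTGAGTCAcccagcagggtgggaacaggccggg
Serpine2: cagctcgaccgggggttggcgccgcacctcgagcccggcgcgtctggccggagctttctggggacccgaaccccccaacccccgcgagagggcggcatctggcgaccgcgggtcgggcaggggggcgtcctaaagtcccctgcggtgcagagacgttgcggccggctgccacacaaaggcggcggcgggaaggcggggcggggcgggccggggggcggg
Distances are counted from the start in the RefSeq table, which can differ from the GENCODE start given above. The last base shown lies 64 bases before that start in Anxa2, 32 in Serpine2 and 1 in Plaur and Serpinb2. The AP-1 letters stood 69 bases before the start of Plaur, 94 before that of Serpinb2 and 95 before that of Anxa2. They were in 6.75% of the 250-base windows of all 32851 promoters of the table, and Serpine2 held no match in the bases shown. The GC box GGGCGG had 4 matches before Serpine2, 3 before Plaur, 1 before Anxa2 and 0 before Serpinb2, and was in 32.7% of all windows. Neighboring matches of this motif can overlap, and the stretches shown for Serpine2 and Anxa2 are shorter than 250 bases. Serpinb2 alone among the 4 held TATAAA, 29 bases before its start, as did 12.4% of all windows. No match was found to the CRE letters TGACGTCA, held by 1.55% of windows. The window of Serpine2 was 77.6% G or C, that of Serpinb2 32.4%. A match of letters describes the window and is no evidence of binding. Plau lies at chr14:20836660-20843385 and Plat at chr8:22757727-22782844, both on the plus strand.

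The 6 genes were held by different cells. Levels are UMIs summed over the cells of a type per 1000000 UMIs of that type (CPM), with exact 95% Poisson intervals that cover counting error only. Among the 6 main types of the CD11c-selected matrix, Plau was highest in macrophages, Plaur in Ly6c2 monocytes, Anxa2 in tumor cells, and Plat, Serpine2 and Serpinb2 in fibroblasts. Of all Plau UMIs, 78.7% lay in macrophages, whereas 39.8% of Plat UMIs lay in the 84 fibroblasts and 45.3% of Serpine2 UMIs lay in the 25 pericytes.

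**Figure D1:**
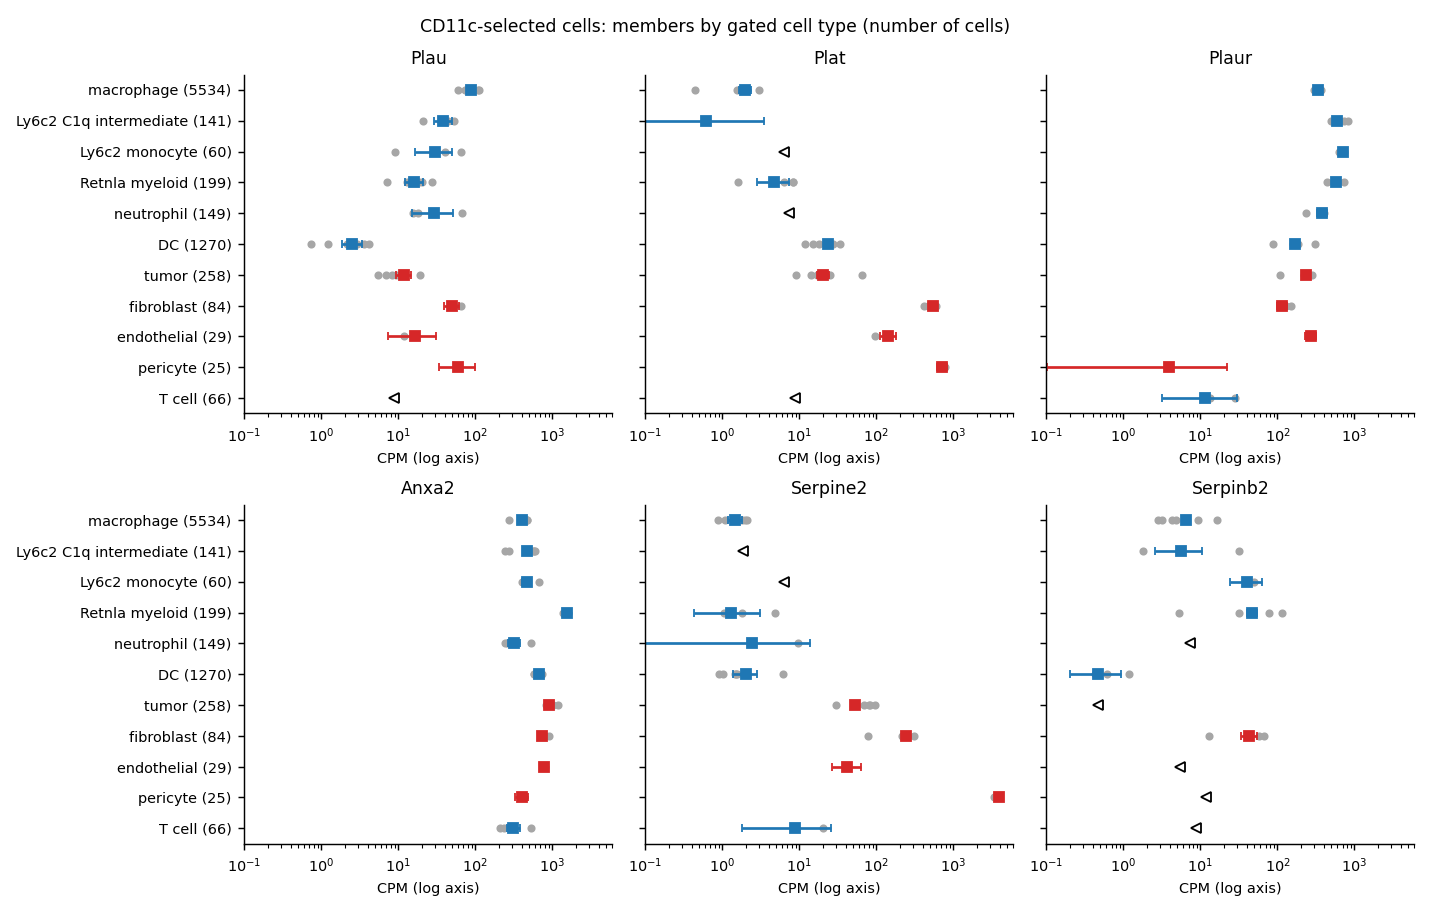
Level of each gene (CPM, log axis) in 11 gated types of the CD11c-selected matrix, with the number of cells in parentheses. Squares are pooled levels with 95% Poisson intervals (blue, blood-derived cells, red, tumor and stromal cells), gray points are barcode runs above 0, and open triangles stand at the limit of 3 counts where no UMI was found. Plat and Serpine2 sit to the right in fibroblasts and pericytes, and Plau in macrophages.

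Plau, the gene of urokinase, stood at 86.9 CPM in macrophages (84.6 to 89.2, n = 5534 cells). The runs gave 60.4 at the lowest, 84.4 at the median and 112 at the highest. Fibroblasts came next at 49.3 (39.0 to 61.5), and macrophages were higher by 1.76-fold, with an interval of 1.41 to 2.23 from counting. In the 22 fibroblasts without any UMI of other types' markers, Plau was at 76.8, and in the 2705 such macrophages at 93.1. Ly6c2 monocytes held 29.8 (16.3 to 49.9) and neutrophils 29.2 (15.1 to 51.0), and neither could be told from the other, with a ratio of 1.02 and an interval of 0.438 to 2.41. The ratio of fibroblasts to monocytes, 1.66, also had an interval that included 1 (0.931 to 3.17). Tumor cells held 11.7 (9.18 to 14.6) and DCs 2.52 (1.83 to 3.40).

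The gap between macrophages and DCs was 34.4-fold (25.5 to 47.6), and Plau was higher in macrophages in 6 of 6 runs. The 11 markers of the macrophage list summed to 34262 CPM in macrophages and 620 in DCs, and their part in the DC level of Plau was not tested. C1qa, C1qb and C1qc of this list were required in macrophages and limited in DCs, so this contrast follows in part from the gates. Intermediate cells with both Ly6c2 and C1q had 38.2 (29.3 to 49.0), which was lower than in macrophages in 5 of 5 runs. No UMI of Plau was found in 66 T cells, whose 344757 UMIs allow a level of up to 8.70. After every cell was thinned to 1000 UMIs, 8.94% of macrophages held a UMI of Plau, against 2.88% of neutrophils, 0.158% of DCs and 0 of 65 T cells, where the limit of 3 counts is a share of 4.62%. This limit is for cells with a UMI of Plau at 1000 UMIs, not for cells that express it. Without thinning the share of macrophages was 39.9%.

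Plaur, the gene of the urokinase receptor, was widespread. Its level was 706 (632 to 786) in Ly6c2 monocytes, 379 (322 to 444) in neutrophils, 333.5 (329 to 338) in macrophages, 237 (225.5 to 249.5) in tumor cells, 167.5 (161.5 to 174) in DCs and 114 (97.8 to 132) in fibroblasts. Ly6c2 monocytes exceeded neutrophils by 1.86-fold (1.53 to 2.27). Neutrophils and macrophages could not be told apart, with a ratio of 1.14 and an interval of 0.965 to 1.33.

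In the 3 runs with at least 10 Ly6c2 monocytes, their level was 620.5, 699 and 724, and every one of them was above macrophages of the same run. The macrophage runs spanned 298 to 373. Intermediate cells held 596.5 (559.5 to 635), above macrophages in 5 of 5 runs and below Ly6c2 monocytes by 1.18-fold (1.04 to 1.34). In pooled CPM, Plaur thus went down from monocytes through intermediate cells to macrophages. In runs 2, 5 and 6 intermediate cells held 582, 496 and 551, and monocytes 699, 620.5 and 724. After thinning, 48.3% of monocytes and 46.8% of intermediate cells held a UMI. In the CD4/CD8-selected matrix 10 monocytes held 734 and 8 intermediate cells 838.5. In the CD11c-selected matrix Plau was higher in macrophages than in either. Its ratio of monocytes to intermediate cells, 0.778, had an interval that included 1 (0.402 to 1.41). The macrophage marker list stood at 8131 in Ly6c2 monocytes, 20718 in intermediate cells and 34262 in macrophages. C1qa, C1qb and C1qc of this list also set these gates, so its order follows in part from the gates. Neutrophils, with a median of only 2746 UMIs, held a UMI of Plaur in 29.5% of cells after thinning (22.1 to 37.8), close to macrophages at 24.0%, whereas T cells held one in 1.54%. The level of Plaur in T cells was 11.6 (3.16 to 29.7).

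Within macrophages, Plau and Plaur were ordered differently. Subsets were gated on the genes that give them their names, with related markers. Plau was highest in Il10 macrophages at 146 (135 to 157), then 93.7 (85.3 to 103) in Lyve1 macrophages, 50.7 (46.6 to 55.1) in Gpnmb macrophages and 31.9 (27.2 to 37.3) in Thbs1 macrophages. Plaur was highest in Thbs1 macrophages at 548 (528 to 569), then 351 (333.5 to 368.5) in Il10, 303 (293 to 314) in Gpnmb and 142 (132 to 153) in Lyve1 macrophages. Thbs1 macrophages exceeded Lyve1 macrophages in Plaur by 3.86-fold (3.55 to 4.20), in 6 of 6 runs. In Plau, Il10 macrophages exceeded Thbs1 macrophages by 4.56-fold (3.83 to 5.45), again in 6 of 6 runs, and Lyve1 macrophages by 1.55-fold (1.38 to 1.76) in 5 of 6.

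The 4 subsets also differed in other measures. Median UMIs per cell were 21618 in Gpnmb, 11048 in Thbs1, 9357.5 in Lyve1 and 9131 in Il10 macrophages. A list of 8 immediate-early genes, which rise fast in stressed or stimulated cells, summed to 9532 CPM in Lyve1, 6773 in Il10, 5866 in Thbs1 and 2775 in Gpnmb macrophages. The part of either in the levels of Plau and Plaur was not tested.

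**Figure D2:**
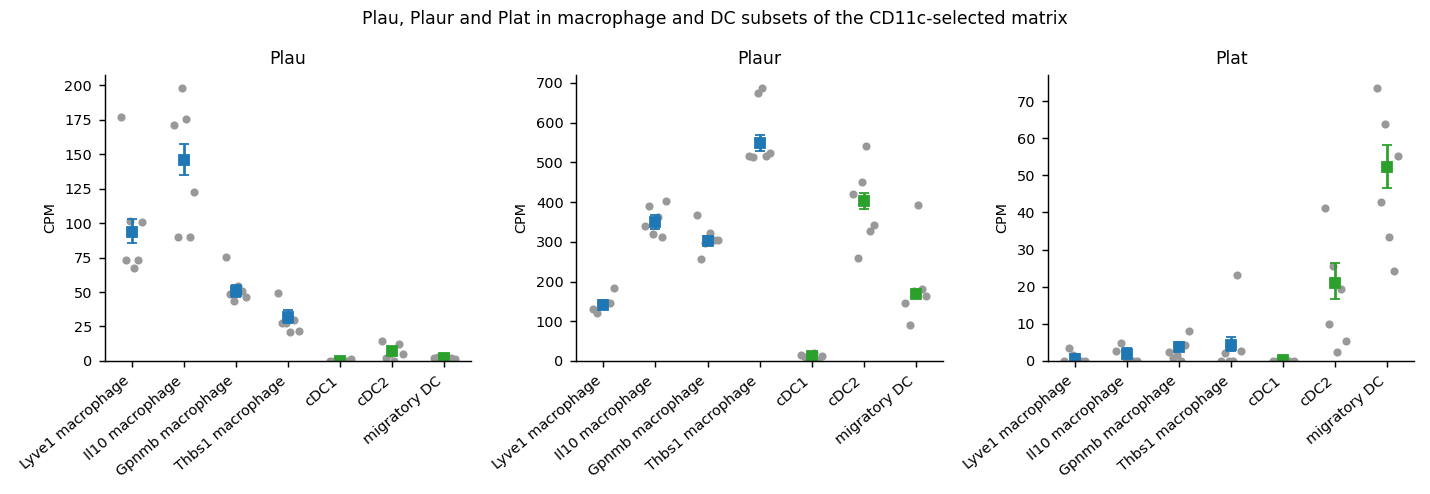
Levels of Plau, Plaur and Plat (CPM) in 4 macrophage subsets (blue) and 3 DC subsets (green) of the CD11c-selected matrix. Squares are pooled levels with 95% Poisson intervals and gray points are the 6 barcode runs. Plau is highest in Il10 macrophages, Plaur in Thbs1 macrophages, and Plat in migratory DCs.

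DC subsets were far apart in Plaur. cDC1, which take up dead cells and cross-present their antigens, held 12.6 (9.97 to 15.8, n = 358), beside 11.6 (3.16 to 29.7) in T cells. cDC2 held 402 (382 to 423, n = 270), higher than cDC1 by 31.8-fold (25.3 to 40.6) and in 6 of 6 runs. Migratory DCs, marked by Ccr7, held 169 (159 to 180, n = 524), and their runs ranged widely, from 89.7 to 393 with a median of 170. After thinning, 1.96% of cDC1, 24.2% of cDC2 and 10.8% of migratory DCs had a UMI of Plaur. The share of cDC1 lay within the wide interval of the 65 T cells of this matrix (0.0389 to 8.28), but was above the 0.278% of T cells in the CD4/CD8-selected matrix, whose level was 2.90, so it could not be told from background within its own matrix.

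Retnla myeloid cells, gated on Retnla with Ear2, Cebpe or Aldh1a2 and few C1q UMIs, held 574 (550 to 598) of Plaur, above macrophages by 1.72-fold (1.65 to 1.80) and in 6 of 6 runs. Their Plau was low, at 16.1 (12.4 to 20.7).

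Plat, the gene of tPA, was highest in stromal cells, with lower levels in DCs and tumor cells. Fibroblasts held 536 (501 to 573), pericytes 716 (616 to 828) and endothelial cells 142 (113 to 177). The 3 runs with at least 10 fibroblasts gave 421, 468 and 591. After fibroblasts, the order among the 6 types was DCs at 23.8 (21.5 to 26.2), tumor cells at 20.1 (16.8 to 23.9) and macrophages at 1.97 (1.64 to 2.35). DCs and tumor cells could not be told apart, with a ratio of 1.18 and an interval of 0.969 to 1.46. No UMI was found in Ly6c2 monocytes, where the limit of 3 counts is 6.38, or in neutrophils, where it is 7.29. Both limits lie above the macrophage level, so that a difference was not detectable at this depth.

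The Plat of DCs came from migratory DCs at 52.2 (46.5 to 58.3) and cDC2 at 21.0 (16.6 to 26.3), while cDC1 had a single UMI in 6093830. Migratory DCs exceeded cDC2 by 2.48-fold (1.93 to 3.23) and were above them in 6 of 6 runs. In migratory DCs 22.3% of cells held a UMI, and no cell more than 11. In cDC2 the share was 8.89%, and 25 of 77 UMIs were in 1 cell. Summed fibroblast markers stood at 8.40 CPM in DCs and 54230 in fibroblasts. Col1a1, Col1a2, Col3a1 and Dcn of this list were limited in DCs and required in fibroblasts by the gates. This contrast thus follows in part from the gates, and the part of these markers in the Plat of DCs was not tested. In tumor cells 33 of 129 Plat UMIs were in 1 cell, without which the level was 15.3.

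Anxa2 was detected in every gated type of the CD11c-selected matrix. Its level was 917 (893.5 to 940.5) in tumor cells, 724.5 (683 to 768) in fibroblasts, 668 (655 to 680) in DCs, 468 (408 to 534) in Ly6c2 monocytes, 407 (402 to 412) in macrophages and 316 (264 to 375) in neutrophils. The step from monocytes to macrophages was small, 1.15-fold (1.00 to 1.31). Tumor cells were above macrophages by 2.26-fold (2.19 to 2.32) and in 5 of 5 runs, with runs from 838 to 1171. Retnla myeloid cells were higher still, at 1538 (1499 to 1578), with runs from 1382 to 1613, and exceeded tumor cells in 5 of 5 runs. T cells, at 310 (254 to 375), and the 19230 T cells of the other matrix, at 173 (170.5 to 176), held Anxa2 as well, so it had no cell type without it to serve as background. In macrophages, the Gpnmb subset held 683.5 (668 to 699) and the Il10 subset 336 (319 to 353).

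S100a10, the partner of annexin A2, was also high in Retnla myeloid cells, at 2402 CPM against 447 in macrophages. Neutrophils held only 36.5 of S100a10, lower than macrophages by 12.3-fold (7.43 to 21.9), although their Anxa2 was lower by only 1.29-fold (1.08 to 1.54).

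Serpine2, the gene of protease nexin-1, had its highest level in pericytes, the mural cells of small vessels, in both matrices. Pericytes held 45.3% of its UMIs in the CD11c-selected matrix and 27.4% in the CD4/CD8-selected matrix, where ungated cells held 34.9% and tumor cells 21.5%. Pericytes held 3889 (3650 to 4140), higher than fibroblasts by 16.3-fold (14.4 to 18.4). Of the 983 UMIs of pericytes 210 were in 1 cell, without which the level was 3472.5. Only 1 run, at 3347, had at least 10 pericytes. UMIs of 1 cell are not independent, so these intervals are too narrow. The gate for pericytes was added after most Serpine2 UMIs had been found outside the other gates, so the pericyte level is a description. These cells also held fibroblast markers, which the gate did not limit: the fibroblast list summed to 16969 in them, above the pericyte list at 15371, and in the CD4/CD8-selected matrix to 25275 against 10985. The part of these markers in the contrast was not tested. Within the 6 types the order was fibroblasts at 239 (215.5 to 264), tumor cells at 52.5 (47.0 to 58.4), then neutrophils, DCs and macrophages, at 2.43, 2.00 and 1.46, none of which could be told apart. Ly6c2 monocytes had no UMI.

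In fibroblasts 140 of 378 Serpine2 UMIs were in 1 cell, and the level without it was 153.5. Their 3 runs gave 77.3, 214 and 306, and fibroblasts were above tumor cells in only 2 of 3 runs. The summed pericyte markers were 735 in fibroblasts, 15371 in pericytes and 88.6 in tumor cells, and their part in the fibroblast level was not tested. Rgs5 of this list was required in pericytes and limited in fibroblasts and tumor cells. The limits of the tumor and fibroblast gates were widened after ungated Serpine2 cells had been seen, so Serpine2 levels and folds of both types are descriptions. Tumor cells exceeded macrophages in 5 of 5 runs, by 35.9-fold (28.4 to 45.7). Their runs ranged from 29.8 to 97.2, with a median of 80.9, and 28.3% of tumor cells held a UMI.

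Serpinb2, the gene of plasminogen activator inhibitor type 2, lay in few cells. Only 132 of the CD11c-selected cells, 1.13%, held a UMI of it, and 18 of them held 50% of its 835 UMIs. Fibroblasts stood at 43.0 (33.4 to 54.5), but 60 of their 68 UMIs came from 3 cells. Ly6c2 monocytes stood at 40.4 (24.3 to 63.1), from 19 UMIs in 2 cells. Without the cell with the most UMIs in each, the levels were 22.4 and 10.9, and the order of these types changed with the settings. Macrophages held 6.40 (5.79 to 7.06), and 25 cells with at least 5 UMIs accounted for 358 of their 403 UMIs. The intervals treat UMIs as independent, which UMIs of 1 cell are not, and are too narrow for this gene.

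By run, macrophages held 2.83 of Serpinb2 at the lowest, 4.56 at the median and 16.5 at the highest. Retnla myeloid cells held 46.3 (39.7 to 53.6), with 178 UMIs in 12.6% of cells (4.52% after thinning), and runs from 0 to 115.5. They were above macrophages in 4 of 6 runs. Tumor cells had no UMI among 6423646, which allows a level of up to 0.467, so Serpinb2 was at least 13.7-fold lower than the pooled level of macrophages, which few cells carried, and the interval from counting in both types begins at 11.1-fold. This was not seen in the CD4/CD8-selected matrix, where 2 UMIs in each type gave 0.291 in tumor cells and 0.126 in macrophages. Neutrophils had none either, but their limit, 7.29, lies above the macrophage level.

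**Figure D3:**
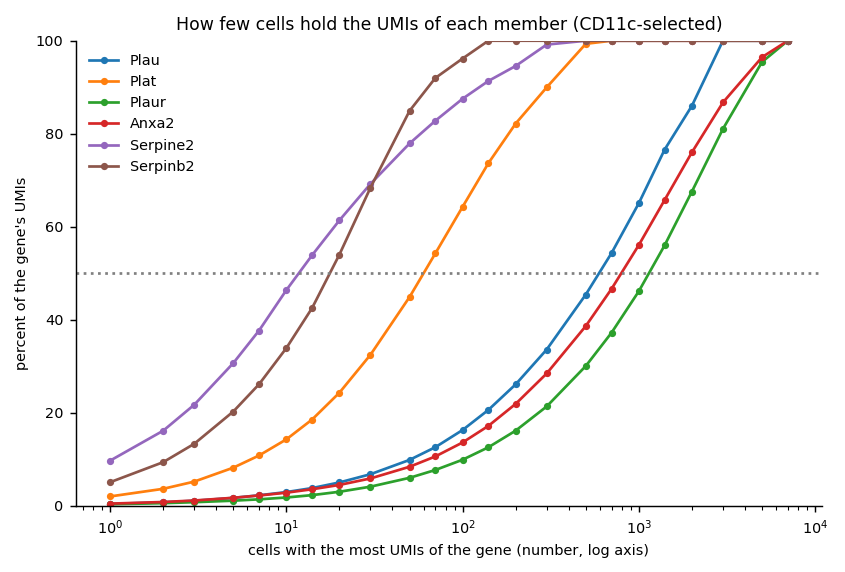
Percent of the UMIs of each gene (y axis) held by the cells with the most of it (x axis, number of cells, log axis) in the CD11c-selected matrix. The dotted line marks 50%, which 12 cells reached for Serpine2, 18 for Serpinb2 and 61 for Plat, against 600 for Plau, 800 for Anxa2 and 1149 for Plaur.

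Each type was also set against macrophages over all genes. The call was a fold over 2 after 1 UMI had been added to each sum, among the 12627 genes with at least 100 UMIs in the matrix, and all 6 genes passed this filter. In fibroblasts 3 of the 6 genes were higher (Plat, Serpine2 and Serpinb2), where 24.9% of all genes were, and 1 was lower (Plaur), where 20.3% were. In tumor cells 3 were higher (Plat, Serpine2 and Anxa2), against 27.3% of all genes, and 2 were lower (Plau and Serpinb2), against 17.9%. The calls of Serpine2 in fibroblasts and tumor cells used gates whose limits were widened after ungated Serpine2 cells had been seen. In fibroblasts 60 of the 68 Serpinb2 UMIs were in 3 cells. In DCs 1 was higher (Plat), against 10.5%, and 2 were lower (Plau and Serpinb2), against 16.6%. Plaur in DCs stood just outside the limit, at 0.503-fold.

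In Ly6c2 monocytes 2 were higher (Plaur and Serpinb2), against 21.4% of all genes, and 1 was lower (Plau), against 7.08%. The call of Serpinb2 in monocytes rested on 19 UMIs in 2 cells, with 14 of them in 1 cell, and monocytes of runs 2 and 5 held none. In neutrophils 1 was higher (Serpine2), against 35.3%, and 2 were lower (Plau and Serpinb2), against 12.5%. The call of Serpine2 in neutrophils rested on 1 UMI and that of Serpinb2 on none, so neither could be shown at this depth. Plau was lower by 2.98-fold (1.70 to 5.77, from counting), but 7 of its 12 UMIs were in run 2. In that run neutrophils held 67.5 and macrophages 73.4. In runs 5 and 6 neutrophils held 15.5 and 17.8, and macrophages 88.0 and 80.8. An added UMI weighs more in a shallow type, and with 1 CPM added to each level in its place, 17.8% of all genes were higher and 23.4% lower in neutrophils, and 4.95% and 18.8% in Ly6c2 monocytes. Of the 6 genes, 0 were then higher and 3 lower in neutrophils, and 2 and 3 in Ly6c2 monocytes. Among the lower calls, Plat and Serpinb2 in neutrophils and Plat and Serpine2 in Ly6c2 monocytes rested on no UMI. The limits of 3 counts, 7.29 and 6.38, lie above the macrophage levels of these genes, so these calls could not be shown at this depth. The median log2 fold of the 6 genes was 1.80 in fibroblasts, where that of all genes was 0.01, and 0.34 in tumor cells, where it was 0.29. In DCs it was -0.26 against -0.08, in Ly6c2 monocytes 0.37 against 0.23 and in neutrophils -0.08 against 0.52.

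The same types could be compared between matrices for macrophages, tumor cells, fibroblasts, pericytes, endothelial cells and T cells. In tumor cells, Plaur was at 237 and 222, Plat at 20.1 and 16.9, Serpine2 at 52.5 and 56.8, and Anxa2 at 917 and 897 in the CD11c-selected and the CD4/CD8-selected matrix, whereas Plau was at 11.7 (9.18 to 14.6) and 4.66 (3.19 to 6.58). In fibroblasts Plat was at 536 and 498 and Plaur at 114 and 97.4, while Serpine2 was at 239 and 110, Plau at 49.3 and 34.0 and Anxa2 at 724.5 and 1027. In the CD4/CD8-selected matrix Anxa2 was thus higher in fibroblasts than in tumor cells, by 1.15-fold (1.07 to 1.22), the reverse of the order in the CD11c-selected matrix. In pericytes Serpine2 was at 3889 and 1980. Selection and tumor stage differ together between the matrices and cannot be told apart.

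Macrophages of the CD4/CD8-selected matrix held less Plau, 49.1 (45.7 to 52.7), and less Plaur, 210 (203 to 217). Of these 835 cells 442 were from 1 run, which also held most Gpnmb macrophages of that matrix, 89.2%. The run had the lowest levels of the matrix, 44.1 of Plau and 170 of Plaur, and the medians of the 6 runs were 54.6 and 300.5. In Lyve1 and Gpnmb macrophages of that matrix, Plaur was again higher in Gpnmb cells, in 3 of 3 runs, but Plau was not higher in Lyve1 cells in any of the 3. Serpinb2 in macrophages was 0.126 there, from 2 UMIs, against 6.40. In its fibroblasts all 66 Serpinb2 UMIs were in 2 cells.

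**Figure D4:**
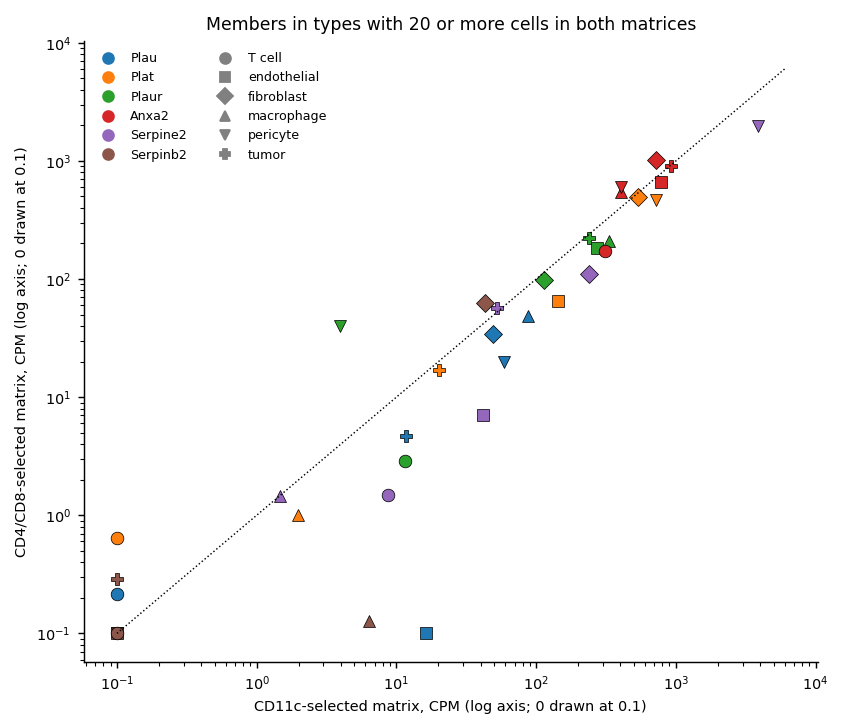
Level of each gene (color) in each type (symbol) with at least 20 cells in both matrices, in CPM on log axes, with 0 drawn at 0.1. The dotted line marks equal levels, close to which the symbols of tumor cells for Plaur, Plat, Serpine2 and Anxa2 lie, while those of tumor cells and macrophages for Plau lie below it.

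A list of 20 other genes of the pathway gave the setting of these levels, and 14 of them had at least 100 UMIs in the CD11c-selected matrix. No UMI of Plg, the gene of plasminogen itself, was found in any gated type of either matrix. In fibroblasts 8 of the 14 were higher than in macrophages and 3 lower, where 24.9% and 20.3% of all genes were. Of the 8, the 2 fibrinogen chains rested on no more than 3 UMIs. Mrc2, which encodes a collagen receptor that binds uPAR, was at 266 in fibroblasts and 131 in pericytes. Lrp1, whose product clears activator-inhibitor complexes, was at 964 in fibroblasts and 239 in macrophages. Vtn, the gene of vitronectin, a matrix ligand of uPAR, was at 178 in pericytes.

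In tumor cells 5 of the 14 were higher and 5 lower, where 27.3% and 17.9% of all genes were. In DCs the counts were 1 and 4, against 10.5% and 16.6%, in Ly6c2 monocytes 5 and 0, against 21.4% and 7.08%, and in neutrophils 6 and 2, against 35.3% and 12.5%. In Ly6c2 monocytes none of the 5, and in neutrophils only 1 of the 6, Itgam, had more than 3 UMIs. Itgam and Itgb2, which encode the integrin Mac-1 that can pair with uPAR, were at 469 and 491 in neutrophils, against 212 and 293 in macrophages. The median log2 fold of the 14 genes, with that of all genes tested after it, was 1.19 and 0.01 in fibroblasts, 0.61 and 0.29 in tumor cells, 0.64 and 0.52 in neutrophils, 0.50 and 0.23 in Ly6c2 monocytes, and -0.05 and -0.08 in DCs.

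**Figure D5:**
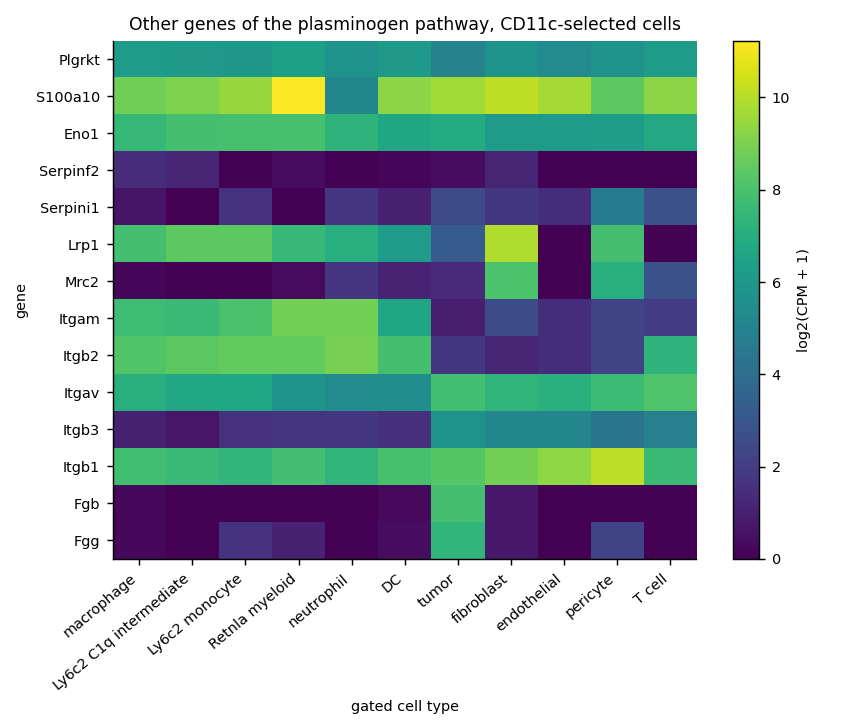
Level of 14 other genes of the pathway, as log2(CPM + 1) in color, in 11 gated types of the CD11c-selected matrix. Lrp1 and Mrc2 are brightest in fibroblasts, S100a10 in Retnla myeloid cells, and Fgb and Fgg in tumor cells.

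For each gene the most alike genes were ranked by Pearson correlation of log2(CPM + 1) over 13 gated types and subsets, among 9755 other genes with at least 500 UMIs. Because all types share 1 matrix and its depth and a few high types can set r, these are descriptions. Lrpap1, a chaperone of the LRP receptors (r = 0.934), and Camk1 (0.929) were most like Plau, Ccdc71l (0.921) and Cltc, the clathrin heavy chain (0.892), most like Plaur, and Lix1l (0.939) and Mxra7 (0.921) most like Plat. Cpe, carboxypeptidase E (0.966), and Pcnx4 (0.949) were most like Serpine2, Steap3 (0.865) and Idh1 (0.806) most like Serpinb2, and Car5b (0.899) and Rad23b (0.879) most like Anxa2. Among the 6 genes themselves, Plat and Serpine2 had the highest r, 0.781, and Plaur and Serpine2 the lowest, -0.623. For Plau and Plaur r was 0.400.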

How the data were processed

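The authors deposited raw UMI counts in 2 matrices of genes by cells, 1 for CD11c-selected and 1 for CD4/CD8-selected cells, and the submitters' processing notes name Cell Ranger 3.0.2 and mm10. No deposited column or barcode names a sample, so the planned comparison of genotypes was not run. Cells under 200 detected genes were dropped, and the rest were gated on raw marker UMIs. Gates left out cells that reached set limits of UMIs of other types' markers, so gated cells could hold some of these UMIs. No doublet caller was run. Gate minimums were set after marker UMIs had been seen. The pericyte gate, and wider limits for tumor cells, fibroblasts, endothelial cells, T cells and plasmacytoid DCs, were set after ungated Serpine2 cells had been seen. The members and lists were chosen with earlier results of these data known. Named genes were the 6 members, genes of a pathway list with at least 100 UMIs in a matrix, and the 5 most alike genes of each member, of which 2 are printed; Vtn, Plg and Fga, below that minimum, and the immediate-early list were added after their values had been seen. A further gene of the list is not reported here.

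Levels are UMIs summed over cells per 1000000 UMIs (CPM), which weights deep cells more. Intervals are exact Poisson, Clopper-Pearson for shares, and conditional binomial for folds, at 95%, and cover counting error only. Where no UMI was found, the limit is 3 counts. Shares were thinned at random to 1000 UMIs, for which 5493 of 5534 macrophages, 139 of 149 neutrophils and 1266 of 1270 DCs were deep enough. The fold call was tested on simulated data. Gene positions are from GENCODE M21 (GRCm38). Python 3.11.15, numpy 2.4.6, scipy 1.17.1 and pandas 2.3.3 were used.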

Additional observations from a re-analysis of the deposited data

How the results depend on the processing

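Gates, filters and summaries were changed 1 at a time. Plau, Plaur, Plat, Serpine2 and Anxa2 kept the same highest type of the 6 under all 12 other settings that gave a level, whereas Serpinb2 was highest in fibroblasts in 7 and in Ly6c2 monocytes in the others. With doubled gate minimums, Plau in macrophages was 83.8. Without any UMI of exclusion markers, the highest levels were 93.1 for Plau, 840 for Plaur (21 monocytes), 498 for Plat, 164 for Serpine2 and 58.2 for Serpinb2 (22 fibroblasts), and 871 for Anxa2, and 5 genes passed the fold in Ly6c2 monocytes. With cells over 10% mitochondrial UMIs left out, Plau was 83.9, Serpinb2 33.1 and Anxa2 1076.5. The median share of mitochondrial UMIs was 11.2% in gated tumor cells, above that limit, and 4.90% in macrophages. As a mean over cells, Plau was 115, Plat 711, Serpinb2 84.2 and Anxa2 867, and 5 genes passed the fold in DCs. A fold of 1.5 gave 5 in DCs, and a fold of 3 gave 1 in neutrophils and 1 in Ly6c2 monocytes.

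With each barcode run left out in turn, the highest levels ranged from 83.2 to 90.3 for Plau, 692 to 735.5 for Plaur, 510 to 570 for Plat, 206.5 to 267 for Serpine2, 31.2 to 48.2 for Serpinb2 and 891 to 952 for Anxa2. The genes past the fold ranged from 2 to 3 in neutrophils, 3 to 4 in Ly6c2 monocytes and 3 to 4 in DCs, and stayed at 5 in tumor cells and 4 in fibroblasts. Serpinb2 in fibroblasts was 31.2 without run 3. Alternatives added after seeing the data left out the cell with the most UMIs of a gene from each type, which gave 153.5 for Serpine2, 22.4 for Serpinb2 and 887 for Anxa2, or added 1 CPM to each level, which gave 5 genes in Ly6c2 monocytes. Of those 5, the calls of Plat and Serpine2 rested on no UMI in Ly6c2 monocytes. Of 330 levels in the other types under the other settings, 57 left the interval of the main value. The causes were not tested. In neutrophils, with 411365 UMIs in all, the limit of 3 counts is 7.29. Levels under it, such as Serpine2 at 2.43 from 1 UMI, rest on fewer than 3 counts. No paired analysis was possible because no cell could be assigned to a numbered sample.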

Other observations

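Plasmacytoid DCs, gated on Siglech, Cox6a2 and Ccr9, held Plaur at 530 CPM in the CD11c-selected matrix (423.5 to 656, n = 17 cells) and at 760 in the CD4/CD8-selected matrix (698 to 827, n = 78), where 5 runs gave 478 at the lowest, 700 at the median and 1107 at the highest. The T cells of that matrix held 2.90. No UMI of Plau, Plat, Serpine2 or Serpinb2 was found in the 78 cells, and their Anxa2, at 78.9 (59.8 to 102), was below the 173 of T cells.

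Tumor cells held 2 of the 3 fibrinogen chains. Fgb was at 237 and Fgg at 165 in the CD11c-selected matrix, and at 66.7 and 167 in the CD4/CD8-selected matrix, whereas macrophages held 0.191 of each in the first. No UMI of Fga was found in any gated type. Serpini1, the gene of neuroserpin, an inhibitor of tPA, was at 8.53 in the 19230 T cells of the CD4/CD8-selected matrix, against 0.189 in its macrophages.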
